A study of Mus musculus with 12 samples.

Results

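The genes described here are those for the proteins that form or directly accompany potassium channels: all 91 symbols of the form Kcn plus letters plus a number, of 23238 gene symbols in the files. Kcnj1 was left out by the rule that chose them, and no measured value entered that rule. Their expression was measured in the kidney of C57BL/6 mice by QuantSeq, which reads the 3′ ends of polyadenylated transcripts. There were 12 libraries: Control 1 to 4 from control mice, CKD 1 to 4 from mice with chronic kidney disease, and CKD TRF 1 to 4 from mice with chronic kidney disease under time restricted feeding. The strain is the only feature that the labels give for all groups. The sources used here do not give the method of inducing disease, the feeding hours, the sampling time or the age of the mice, or say whether each library came from its own animal. The p-values therefore measure the spread between these libraries, part of which may be technical.

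Potassium channels let potassium ions cross membranes passively, which sets the membrane voltage that drives other transport. Voltage-gated channels open on depolarisation, BK, SK and IK channels open with calcium, 2-pore domain channels carry a leak current, and inward rectifiers pass potassium more easily into the cell than out of it. In kidney tubules, basolateral channels return the potassium that the sodium pump brings in, and luminal channels secrete it. Auxiliary subunits form no pore of their own and change the gating or surface level of the pore subunits. By class the genes comprised 40 voltage-gated pore subunits (modifier subunits included), 11 auxiliary subunits of those channels, 8 BK and Slo genes, 4 SK and IK genes, 14 inward rectifiers and 14 2-pore domain channels.

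Values are given as scaled reads, the deposited log2 values turned back to a linear scale. Read totals recovered from the values were 10989797 to 12810807 for Control, 14512525 to 16857975 for CKD and 14145862 to 17210076 for CKD TRF. A count of 0 allows up to 3 reads, which were worth 0.168 to 0.306 scaled reads (counting error only). Sums of markers for proximal tubule were 6099 to 11305 scaled reads per library and those for thick ascending limb 1949 to 3577, so the labelled tissue was present in all 12 libraries. The scaled reads of a library summed to more in Control (1076773 to 1180101) than in CKD (941189 to 978419) or CKD TRF (987841 to 1025834), so values are given with equal sums where that ends a call. The mean log2 level of 9 adipose markers lay more than 1 above the highest Control library in CKD 2, CKD 4, CKD TRF 1, CKD TRF 3 and CKD TRF 4. Changes are differences of log2(scaled reads + 1) with their SE, which understates the change of genes near 0, tested with limma on the 13943 genes in the upper 60% by mean level.

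Of the 91 genes, 37 were tested, and in CKD against Control 12 of them rose and 3 fell (limma adjusted p below 0.05). Among all tested genes 45.4% were called, 23.6% higher and 21.8% lower, and among the channel genes 40.5% were called, 32.4% higher and 8.11% lower. The channel genes that rose were Kcna1, Kcnd2, Kcnq1, Kcns3, Kcne4, Kcnip3, Kcnma1, Kcnmb1, Kcnt2, Kcnn4, Kcnk2 and Kcnk3. Those that fell were Kcnj16, Kcnj2 and Kcnk5. The median change was 0.31 over the 37 genes and 0.02 over all tested genes. Over the 11 channel genes in the upper 40% by mean level it was -0.02, beside -0.06 over all genes in that part. The 37 include genes tested only through diseased libraries, given below, so the 0.31 is not read as an excess. All Control and CKD libraries lay apart in 12 channel genes (32.4%, 10 higher and 2 lower) and in 39.5% of all tested genes (20.3% higher and 19.2% lower). The 10 include Kcna1, Kcnd2, Kcnmb1 and Kcnn4, whose testing is described next. Because the limit of testing was set on the mean of all libraries, 8 of the 37 genes had a Control mean below it. Of these, 4 rose: Kcna1, Kcnd2, Kcnmb1 and Kcnn4. They were tested only because diseased libraries raised their mean, so their rise is described and not counted as support. Of the 29 genes with a Control mean above the limit, 8 rose and 3 fell.

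The 5 libraries with high adipose markers were also the 5 with the highest urothelium markers, at a mean log2 of 3.28 to 3.82 beside 1.89 to 2.05 in the other diseased libraries and 0.56 to 1.30 in Control. All 6 of 6 tested urothelium markers rose in CKD. Without those 5 libraries 7 channel genes were higher in CKD (Kcna1, Kcnd2, Kcnk2, Kcnma1, Kcnmb1, Kcnn4 and Kcnq1) and Kcnj16, Kcnj2 and Kcnk5 were lower, with 29.0% of all tested genes called on 2 CKD and 1 CKD TRF library. The median change of the channel genes was then 0.29. With the mean log2 levels of adipose and of urothelium markers as 2 covariates, 0 channel genes were higher and 1 (Kcnk5) was lower, with 4.40% of all tested genes called and a median change of the channel genes of 0.31. In that fit some changes stayed near their size with a larger SE, such as Kcna1 (1.12 ± 0.53), Kcnk2 (1.13 ± 0.51) and Kcnj2 (-1.11 ± 0.61), and others were smaller, such as Kcnd2 (1.16 ± 0.54), Kcne4 (0.15 ± 0.57) and Kcnk3 (0.31 ± 0.55). The part of fat or urothelium in the changes was not tested beyond these fits.

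**Figure D1:**
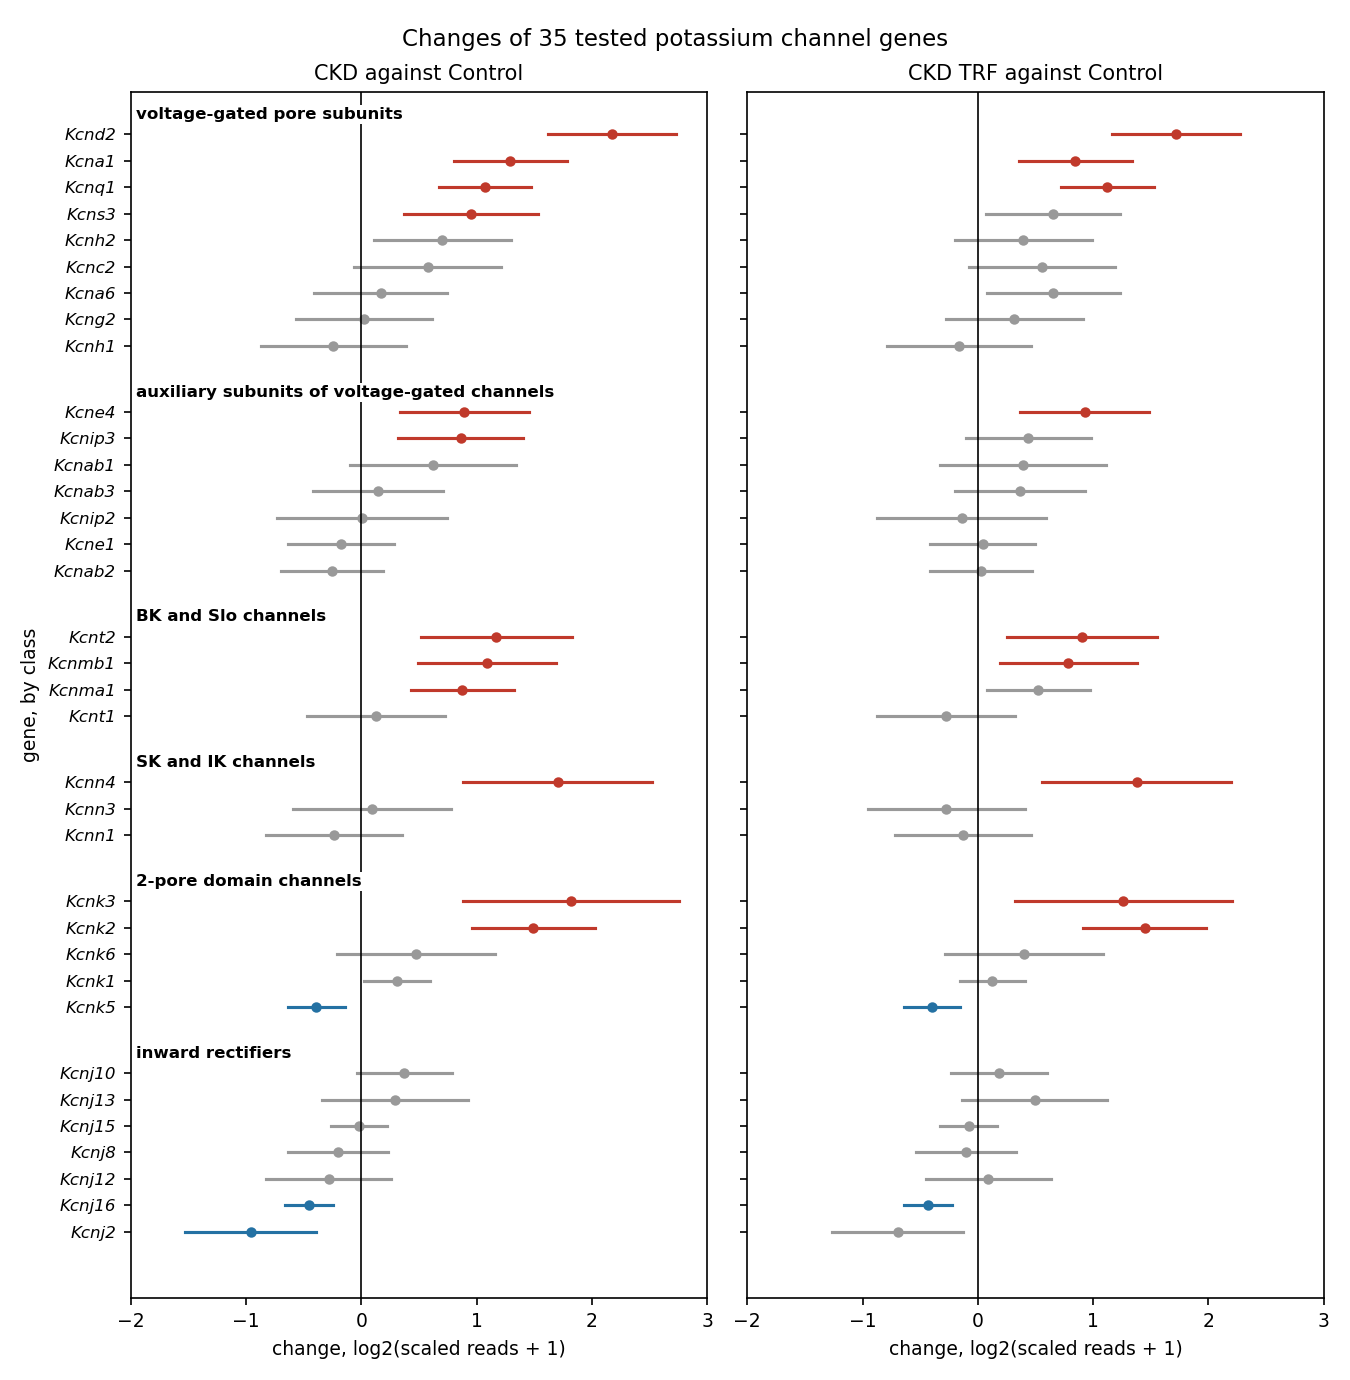
Change in log2(scaled reads + 1) of 35 tested potassium channel genes, by class, in CKD against Control and in CKD TRF against Control, with 95% intervals. Red points were higher, blue points lower and grey points not called by limma at an adjusted p of 0.05: 12 red and 3 blue in the first panel, 9 red and 2 blue in the second.

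Among the voltage-gated pore subunits, 4 of 11 tested genes rose in CKD and 0 fell, with a median change of 0.57. The count includes Kcna1 and Kcnd2, whose Control mean was below the limit of testing. Each class count in CKD stands beside 23.6% higher and 21.8% lower among all tested genes. The summed level of this class was 34.6 to 46.5 scaled reads per library for Control, 54.0 to 78.9 for CKD and 55.7 to 75.2 for CKD TRF. In RNA of whole kidney, fewer cells of a type and less RNA per cell cannot be told apart, and the same holds for rises.

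Kcnq1 (chr7:143106362-143427042, mm10) had the highest mean level of this class and encodes a channel that works with KCNE subunits in epithelia and heart. Its level was 8.07, 7.92, 13.9 and 15.2 scaled reads in Control 1 to 4, 25.2, 29.7, 21.7 and 19.9 in CKD 1 to 4, and 26.2, 23.9, 29.1 and 20.7 in CKD TRF 1 to 4. All 8 diseased libraries lay above all 4 Control libraries. The change was 1.07 ± 0.19 (limma adjusted p = 1.5e-04) in CKD against Control. The exons of its antisense transcript Kcnq1ot1 overlap those of Kcnq1, and since the strand setting of the counting is not given, reads of the pair cannot be told apart. Kcnq1ot1 had means of 54.8, 85.4 and 82.3 scaled reads in Control, CKD and CKD TRF, and its change in CKD was 0.78 ± 0.30 (limma adjusted p = 0.0380).

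Kcnd2 (chr6:21215503-21729805) encodes a pore subunit of the fast, transient A-type current known from neurons and heart. It had 0, 11, 2 and 0 reads in Control 1 to 4, or 0, 1.01, 0.170 and 0 scaled reads. The level was 4.41, 6.89, 4.00 and 3.61 scaled reads in CKD 1 to 4, and 3.65, 3.18, 1.97 and 3.75 in CKD TRF 1 to 4. Control 2 was the highest Control library and still lay below all 8 diseased libraries. The rise in CKD of 2.18 ± 0.27 (limma adjusted p = 2.2e-06) had the largest size of all changes of the 37 genes. On the recovered reads limma voom, which adds a smaller constant to each count and scales by read totals, gave 5.17. With 0 reads in Control 1 and Control 4, the size of that value depends on the constant.

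Kcna1 (chr6:126640397-126646384) encodes a shaker-type channel that, in the distal convoluted tubule, is known to set the luminal voltage for magnesium uptake. Its level was 0.408, 0.276, 1.19 and 0.639 scaled reads in Control 1 to 4, 3.05, 3.64, 2.03 and 3.08 in CKD 1 to 4, and 1.72, 1.66, 2.26 and 1.84 in CKD TRF 1 to 4. The 8 diseased libraries lay above the 4 Control libraries, and the change in CKD was 1.29 ± 0.24 (limma adjusted p = 1.7e-04). Of the distal convoluted tubule markers, 2 of 5 tested rose and 1 fell in CKD. All 6 markers summed to 479 to 676 scaled reads in Control and 736 to 823 in CKD. Their part in the change of Kcna1 was not tested.

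Kcns3 (chr12:11090202-11151056) forms no current alone and modifies channels of the shab type. It was at 0.816, 1.47, 1.02 and 1.46 scaled reads in Control 1 to 4, 3.05, 4.99, 1.68 and 3.80 in CKD 1 to 4, and 4.01, 3.12, 1.31 and 1.84 in CKD TRF 1 to 4. CKD and Control libraries lay apart, with CKD 3 the nearest to Control, and the change was 0.95 ± 0.28 (limma adjusted p = 0.00882). Without the libraries with adipose markers it was 0.60 (limma adjusted p = 0.154), and after quantile normalization 0.57 (limma adjusted p = 0.106).

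The other 7 tested genes of the class did not pass in CKD against Control. Kcnh2, the erg channel of cardiac repolarisation, came nearest with a change of 0.70 ± 0.29 (limma adjusted p = 0.05004, just above the threshold). It was at 0.204 to 0.851 scaled reads in Control and 0.348 to 2.46 in CKD. The Control mean of Kcnh2 was also below the limit of testing. Kcnc2 had a change of 0.57, Kcna6 0.17, Kcng2 0.02 and Kcnh1 -0.24.

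Of the auxiliary subunits, 2 of 7 tested genes rose in CKD and 0 fell, with a median change of 0.15. Kcne1 (chr16:92345982-92359468), which slows the gating of Kcnq1, had the highest mean of this class. Its level was 13.1, 5.99, 11.1 and 8.77 scaled reads in Control 1 to 4, 12.3, 8.23, 5.80 and 7.54 in CKD 1 to 4, and 10.2, 8.61, 10.3 and 9.66 in CKD TRF 1 to 4. The groups overlapped and Kcne1 did not pass (change -0.17 ± 0.22, 95% interval -0.63 to 0.28, limma adjusted p = 0.546), beside the rise of its partner Kcnq1. Kcne4 (chr1:78816758-78820028), a subunit known to inhibit several voltage-gated channels, was at 1.43, 3.50, 4.85 and 5.84 scaled reads in Control 1 to 4, 8.04, 9.53, 5.40 and 7.54 in CKD 1 to 4, and 6.80, 5.90, 10.5 and 8.22 in CKD TRF 1 to 4. CKD 3 lay below Control 4, so these groups overlapped, while all CKD TRF libraries lay above Control. In CKD the change was 0.89 ± 0.27 (limma adjusted p = 0.0104). It was 0.59 after quantile normalization (limma adjusted p = 0.0725) and 0.59 without Control 1 (limma adjusted p = 0.0489).

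Kcnip3 (chr2:127456498-127522094) encodes a calcium-binding protein that joins A-type channels and is also known as a transcriptional repressor. It had 0.918, 1.75, 1.87 and 1.55 scaled reads in Control 1 to 4, 2.34, 3.87, 2.85 and 5.77 in CKD 1 to 4, and 2.94, 2.32, 3.28 and 1.31 in CKD TRF 1 to 4. CKD lay above Control in all libraries, and CKD TRF 4 lay within the Control range. CKD differed from Control by 0.86 ± 0.26 (limma adjusted p = 0.0106). It missed the threshold without CKD 4 (0.67, limma adjusted p = 0.0509) and after quantile normalization (0.48, limma adjusted p = 0.144). Without the libraries with adipose markers, the change was 0.52 (limma adjusted p = 0.199) for Kcnip3 and 0.73 (limma adjusted p = 0.148) for Kcne4. Kcnab1 (0.62), Kcnab2 (-0.25) and Kcnab3 (0.15), the beta subunits of shaker channels, and Kcnip2 (0.01) did not pass.

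In the BK and Slo class 3 of 4 tested genes rose in CKD and 0 fell, with a median change of 0.98. The count includes Kcnmb1, whose Control mean was below the limit of testing. The class sum was 3.96 to 7.48 scaled reads per library for Control, 10.8 to 17.4 for CKD and 8.48 to 14.1 for CKD TRF. Kcnma1 (chr14:23289431-24014491), the pore of the BK channel, was at 2.35, 2.12, 3.83 and 3.84 scaled reads in Control 1 to 4, 6.81, 5.99, 6.10 and 6.17 in CKD 1 to 4, and 6.88, 4.51, 4.05 and 3.75 in CKD TRF 1 to 4. The 4 CKD libraries lay close together and above Control, and CKD TRF 4 lay within the Control range. The difference of CKD from Control was 0.88 ± 0.21 (limma adjusted p = 0.00241). Kcnmb1 (chr11:33963013-33973641), the beta subunit of smooth muscle BK channels, was at 0.715, 0.645, 0.851 and 0.274 scaled reads in Control 1 to 4, 2.79, 2.63, 2.09 and 2.23 in CKD 1 to 4, and 1.79, 0.464, 3.64 and 2.10 in CKD TRF 1 to 4. CKD lay above Control in all libraries (change 1.09 ± 0.29, limma adjusted p = 0.00414), while CKD TRF 2 lay within the Control range. After quantile normalization the change in CKD was 0.69 for Kcnmb1 (limma adjusted p = 0.0536) and 0.55 for Kcnma1 (limma adjusted p = 0.0424).

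Markers of smooth muscle and pericytes moved with these genes. In CKD 7 of 8 tested markers rose. All 9 markers summed to 335 to 400 scaled reads for Control, 640 to 730 for CKD and 563 to 707 for CKD TRF. Their part in the changes of Kcnma1 and Kcnmb1 was not tested. Kcnj8, the inward rectifier of vascular smooth muscle and pericytes, was at means of 10.4, 8.79 and 9.66 scaled reads in Control, CKD and CKD TRF and did not pass (-0.20 ± 0.21, limma adjusted p = 0.445).

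Kcnt2 (chr1:140246158-140612067), a sodium-activated channel of the Slo family, was at 0.204, 0.738, 1.36 and 1.00 scaled reads in Control 1 to 4, 4.15, 4.43, 0.929 and 3.74 in CKD 1 to 4, and 2.58, 1.59, 1.91 and 3.48 in CKD TRF 1 to 4. CKD 3 lay within the Control range, and the other CKD libraries lay above it. The change in CKD was 1.17 ± 0.31 (limma adjusted p = 0.00464), and 0.83 (limma adjusted p = 0.133) without the libraries with adipose markers. Its relative Kcnt1 had a change of 0.13 and did not pass.

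Of the 3 tested SK and IK genes 1 rose, Kcnn4, whose Control mean was below the limit of testing. Kcnn4 (chr7:24370263-24386690) encodes the intermediate conductance calcium-activated channel known from T cells, macrophages, fibroblasts and secretory epithelia. It had 0, 2.03, 0 and 0.913 scaled reads in Control 1 to 4, 5.45, 2.24, 3.71 and 5.64 in CKD 1 to 4, and 3.15, 7.95, 1.19 and 2.23 in CKD TRF 1 to 4. Control 1 and Control 3 held no read, CKD lay above Control in all libraries, and CKD TRF 3 lay within the Control range. In CKD the change was 1.71 ± 0.39 (limma adjusted p = 0.00151), and 4.17 by limma voom on the recovered reads. Markers of T cells rose in 6 of 7 tested (sum 2.72 to 4.84 scaled reads in Control and 19.1 to 27.2 in CKD), of macrophages in 8 of 8 (165 to 201 and 569 to 711) and of fibroblasts in 7 of 7 (145 to 168 and 838 to 934). Their part in the change of Kcnn4 was not tested. The neuronal SK genes Kcnn1 (-0.24) and Kcnn3 (0.09) did not pass.

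Of the 2-pore domain channels, 2 of 5 tested genes rose and 1 fell in CKD, with a median change of 0.48. The class sum overlapped between groups, with means of 148, 154 and 141 scaled reads in Control, CKD and CKD TRF. Kcnk2 (chr1:189207930-189402273), a leak channel that opens with membrane stretch and fatty acids, was at 4.59, 3.87, 2.64 and 7.31 scaled reads in Control 1 to 4, 8.56, 15.9, 15.8 and 18.1 in CKD 1 to 4, and 17.9, 8.75, 15.1 and 14.3 in CKD TRF 1 to 4. All 8 diseased libraries lay above Control. CKD differed from Control by 1.49 ± 0.26 (limma adjusted p = 9.6e-05), and 1.24 without the libraries with adipose markers.

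Kcnk3 (chr5:30588170-30625271) encodes an acid-sensitive leak channel known from the adrenal cortex, pulmonary arteries and brown fat. Its level was 0.612, 1.93, 1.53 and 0.365 scaled reads in Control 1 to 4, 2.85, 10.4, 2.03 and 18.0 in CKD 1 to 4, and 4.01, 1.59, 4.59 and 6.44 in CKD TRF 1 to 4. CKD 2 and CKD 4 were the highest of the 12 libraries, CKD 3 was just above the highest Control library, and CKD TRF 2 lay within the Control range. The difference of CKD from Control was 1.82 ± 0.45 (limma adjusted p = 0.00266). CKD 2 and CKD 4 also had the highest adipose marker levels, a mean log2 of 4.77 and 5.47 against 2.08 to 2.46 in Control, and the highest urothelium levels, 3.82 and 3.43. Adipoq, the adipocyte hormone adiponectin, was at 38.1 and 58.7 scaled reads in them, 0 to 0.461 in Control, and Plin1 was at 0 in all 4 Control libraries. Of the 8 tested adipose markers 5 rose and 1 fell in CKD. The sum of all 9 markers was 412 to 599 scaled reads for Control, 309 to 986 for CKD and 264 to 504 for CKD TRF. In Control most of this sum came from Fabp4 and Cd36. Without the libraries with adipose markers the change of Kcnk3 was 0.77 (limma adjusted p = 0.117). Of the adrenal markers 0 of 1 tested passed, and Cyp11b2 and Hsd3b1 were at 0 in all libraries.

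**Figure D2:**
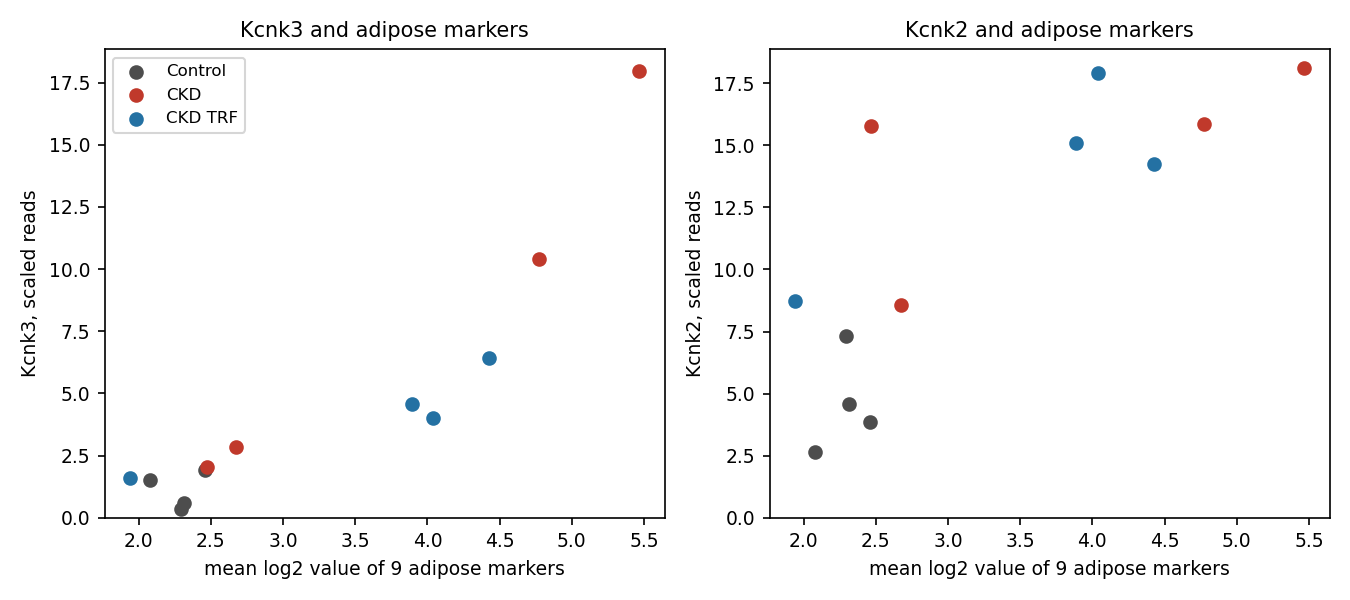
Scaled reads of Kcnk3 and Kcnk2 in each of the 12 libraries against the mean log2 level of 9 adipose markers, coloured by group. The highest Kcnk3 values, 18.0 and 10.4, belong to CKD 4 and CKD 2, which have the highest adipose levels, while Kcnk2 is at 15.8 in CKD 3, where the adipose level is 2.47.

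Kcnk5 (chr14:20140057-20181809) encodes a leak channel that opens at alkaline pH and is known from the basolateral side of the proximal tubule. Its level was 94.5, 106, 108 and 81.9 scaled reads in Control 1 to 4, 70.6, 89.5, 67.2 and 70.0 in CKD 1 to 4, and 82.5, 74.9, 73.0 and 63.7 in CKD TRF 1 to 4. CKD 2 and CKD TRF 1 lay above Control 4, so the groups overlapped. The change in CKD was -0.39 ± 0.12 (limma adjusted p = 0.0102), and -0.16 (limma adjusted p = 0.272) after libraries were brought to equal sums. After quantile normalization it was -0.27 (limma adjusted p = 0.0722). Kcnk1, a leak channel found along the nephron, had means of 43.3, 53.3 and 46.9 scaled reads and did not pass (0.31 ± 0.14, limma adjusted p = 0.0706), nor did Kcnk6 (0.48).

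The inward rectifiers held most of the channel reads, and 2 of 7 tested genes fell in CKD while 0 rose, with a median change of -0.20. Kcnj15 and Kcnj16 together made up a mean of 87.0% of the scaled reads of all channel genes for Control, 82.8% for CKD and 83.3% for CKD TRF. QuantSeq gives about 1 read per transcript, so these shares are of reads at 3′ ends and depend on how well each 3′ end is captured.

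Kcnj16 (chr11:110968033-111027968) encodes a subunit that joins Kcnj10 or Kcnj15 in basolateral channels of the tubule. Its level was 804, 749, 946 and 884 scaled reads in Control 1 to 4, 579, 581, 662 and 638 in CKD 1 to 4, and 617, 688, 562 and 635 in CKD TRF 1 to 4. All 8 diseased libraries lay below all 4 Control libraries. In CKD the change was -0.46 ± 0.10 (limma adjusted p = 0.00105). With equal sums it was -0.23 (limma adjusted p = 0.0878), and after quantile normalization -0.01, so the call depended on the scaling.

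Kcnj15 (chr16:95257558-95300260), which had the highest mean of the 91 genes, was at 809, 818, 1046 and 921 scaled reads in Control 1 to 4, 1061, 915, 831 and 751 in CKD 1 to 4, and 864, 935, 804 and 784 in CKD TRF 1 to 4. The groups overlapped and the change in CKD was -0.02 ± 0.12 (95% interval -0.26 to 0.23, limma adjusted p = 0.917). After quantile normalization it was 0.41 (limma adjusted p = 0.00942). The ratio of Kcnj16 to Kcnj15 within a library does not depend on the scaling of the library. It was 0.994, 0.916, 0.904 and 0.959 in Control 1 to 4, 0.546, 0.635, 0.796 and 0.849 in CKD 1 to 4, and 0.714, 0.736, 0.699 and 0.810 in CKD TRF 1 to 4. Every diseased library was below every Control library, with CKD 1 the lowest. This shows unequal change of the 2 genes, not that either was unchanged. Kcnj10, the other partner, had means of 20.3, 26.3 and 23.1 scaled reads and did not pass (0.37 ± 0.20, limma adjusted p = 0.133). The ratio of Kcnj16 to Kcnj10 was 33.7 to 54.3 for Control, 19.2 to 32.7 for CKD and 19.9 to 39.3 for CKD TRF, where the last range overlaps that of Control. Proximal tubule markers fell in 6 of 10 tested in CKD and had sums of 8642 to 11305 scaled reads in Control and 6099 to 6876 in CKD. Thick ascending limb markers rose in 5 and fell in 1 of 7. The part of either in these changes was not tested.

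**Figure D3:**
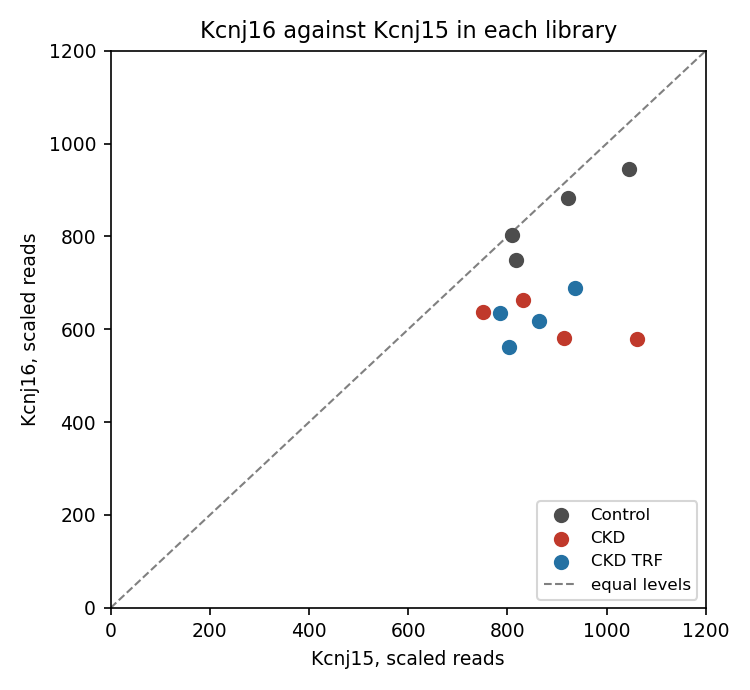
Scaled reads of Kcnj16 against Kcnj15 in each of the 12 libraries, with a line where both are equal. The ratio is 0.904 to 0.994 in the Control libraries, 0.546 to 0.849 for CKD and 0.699 to 0.810 for CKD TRF.

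Kcnj2 (chr11:111066164-111076821), the strong inward rectifier that sets the resting potential of muscle and many other cells, was at 3.57, 3.96, 3.40 and 3.20 scaled reads in Control 1 to 4, 1.82, 1.34, 0.638 and 1.71 in CKD 1 to 4, and 0.860, 1.39, 3.93 and 1.77 in CKD TRF 1 to 4. CKD lay below Control in all libraries, and CKD TRF 3 lay within the Control range. CKD differed from Control by -0.96 ± 0.27 (limma adjusted p = 0.00716), and -0.80 with equal sums. Kcnj12 (-0.28), a relative of Kcnj2, and Kcnj13 (0.29), known from epithelia, did not pass. Kcnj16 and Kcnj2 are neighbours on the plus strand, 38195 bases apart with 0 protein-coding genes between them (GENCODE M21).

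**Figure D4:**
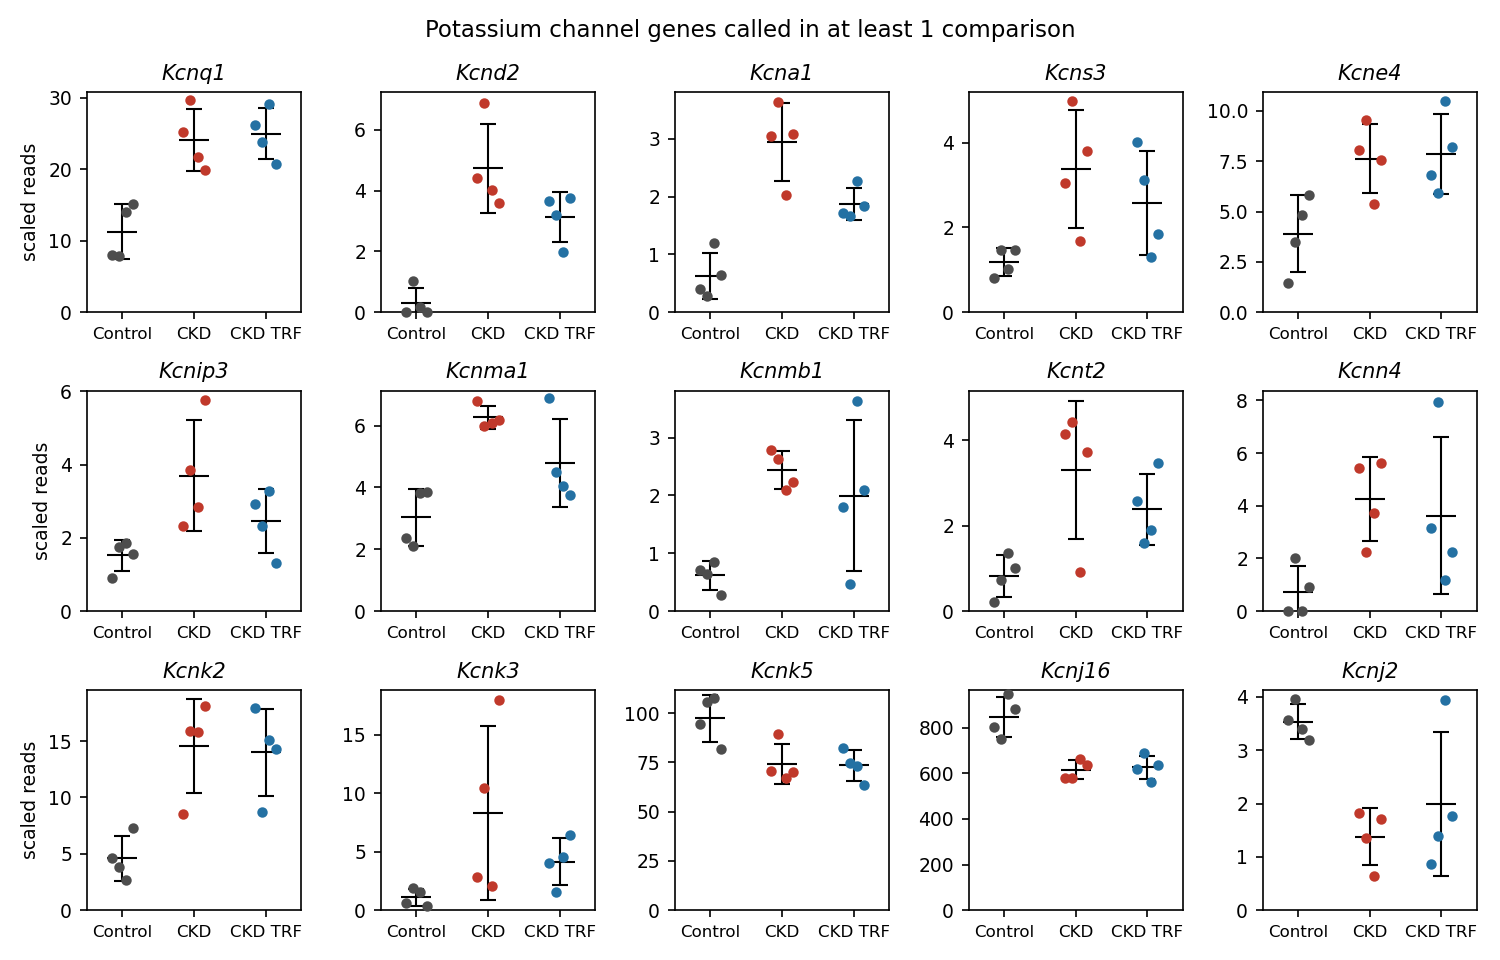
Scaled reads of the 15 potassium channel genes called in CKD against Control, 1 panel per gene, in each library of Control, CKD and CKD TRF, with bars at the mean ± SD (n = 4 per group). In Kcnj16 and Kcnq1 the Control libraries stand apart from both diseased groups, whereas in Kcnt2 CKD 3 lies far from the rest of its group and in Kcnk3 the CKD libraries split into 2 low and 2 high.

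Start site sequences are shown for the neighbours Kcnj16 and Kcnj2, which both fell in CKD, and for Kcne4 and Kcnn4, which rose and share a motif with Kcnj2. They come from RefSeq (GRCm38.p6), which gave the bases around the start, from 250 before to 50 after, for 66 of the 91 genes and 12 of the 15 called genes, over 91 start sites. Each stretch is 120 bases of the plus strand, written 5′ to 3′. Capitals mark GGGCGG, the SP1 motif, in Kcnj16. It starts 46 bases before the most downstream of the 4 start sites of Kcnj16, well inside the gene span given above. In the others capitals mark CACGTG, the E-box motif, which starts 84, 54 and 133 bases before the start sites of Kcnj2, Kcne4 and Kcnn4. For Kcne4 this motif also lies inside the gene span given above. The Kcnj2 stretch also holds GGGCGG, left in lower case.
Kcnj16, chr11:111023757-111023876: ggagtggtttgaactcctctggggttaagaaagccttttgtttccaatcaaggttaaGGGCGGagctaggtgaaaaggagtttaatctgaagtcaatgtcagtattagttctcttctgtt
Kcnj2, chr11:111066023-111066142: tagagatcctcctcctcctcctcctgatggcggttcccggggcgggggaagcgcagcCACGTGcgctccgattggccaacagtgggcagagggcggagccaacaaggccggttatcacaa
Kcne4, chr1:78816800-78816919: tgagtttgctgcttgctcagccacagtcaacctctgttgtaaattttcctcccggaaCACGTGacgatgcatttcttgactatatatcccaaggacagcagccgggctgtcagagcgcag
Kcnn4, chr7:24370073-24370192: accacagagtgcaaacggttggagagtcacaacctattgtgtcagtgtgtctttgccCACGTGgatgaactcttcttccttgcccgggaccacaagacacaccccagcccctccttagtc
The E-box letters stood, on either strand, at 7 of 91 start sites of the channel genes (7.69%) and at 7.15% of all 32851 start sites of the same length. They were at 4 of the 21 start sites of called genes, in Kcne4, Kcnj2, Kcnn4 and Kcnk5, of which 2 rose and 2 fell. The SP1 letters stood at 48.4% of channel gene start sites, 11 of 21 for called genes, and at 35.7% of all. The motifs were chosen after the changes were seen, and a match describes letters only.

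Between CKD TRF and CKD, the comparison that asks what the feeding schedule changed in diseased kidney, 0 of 37 channel genes and 0% of all tested genes passed (limma, smallest adjusted p of a channel gene 0.800). At an unadjusted p below 0.05 there were 0 channel genes, and limma voom on the recovered reads also called 0. Changes ran from -0.56 (Kcnk3) to 0.49 (Kcna6), with a median of -0.06 beside -0.01 over all tested genes. The 95% intervals of 31 of the 37 genes lay within 1 of no change on the scale of log2(scaled reads + 1). For genes near 0 a difference of 1 on this scale is more than a 2-fold change, so a 2-fold change can lie inside their intervals. The interval nearest to no change was that of Kcnj16, -0.19 to 0.23. The smallest p was that of Kcna1 (-0.45 ± 0.24, 95% interval -0.94 to 0.04). Kcna6 (a shaker-type channel) was the 1 gene whose libraries did not overlap, beside 4.5% of all tested genes (2.37% higher and 2.13% lower). It was at 1.10, 1.51, 1.28 and 0.524 scaled reads in CKD 1 to 4 and 2.01, 1.52, 2.62 and 1.58 in CKD TRF 1 to 4, with a change of 0.49 ± 0.28 (limma adjusted p = 0.812).

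In CKD TRF against Control 9 of the 37 genes were higher (24.3%) and 2 lower (5.41%), beside 37.5% of all tested genes called, 19.5% higher and 17.9% lower. The comparison uses the same Control libraries as that of CKD, so the pair of results is not independent. The higher genes were Kcnd2 (1.72 ± 0.27), Kcnk2 (1.45 ± 0.26), Kcnn4 (1.38 ± 0.39), Kcnk3 (1.26 ± 0.45), Kcnq1 (1.12 ± 0.19), Kcne4 (0.93 ± 0.27), Kcnt2 (0.90 ± 0.31), Kcna1 (0.84 ± 0.24) and Kcnmb1 (0.79 ± 0.29). Kcnj16 (-0.43 ± 0.10) and Kcnk5 (-0.40 ± 0.12) were lower. Of the higher genes, Kcna1, Kcnd2, Kcnmb1 and Kcnn4 had a Control mean below the limit of testing. Their rise is again described and not counted as support. The 24.3% includes them, so it is not read as an excess over the 19.5% of all tested genes. The limma adjusted p was 4.9e-05 for Kcnd2, 0.00213 for Kcnj16 and 0.0361 for Kcnmb1, the largest of the 11. All libraries lay apart in 8 genes (21.6%), beside 31.9% of all tested genes (16.3% higher and 15.6% lower). Kcna1, Kcna6, Kcnd2, Kcne4, Kcnk2, Kcnq1 and Kcnt2 lay above Control and Kcnj16 below. Kcnj2 (-0.70, limma adjusted p = 0.0505), Kcnma1 (0.52, 0.0610), Kcns3 (0.65, 0.0732) and Kcnip3 (0.44, 0.201) did not pass, and none of these 4 was shown to differ between CKD TRF and CKD.

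By class, CKD TRF against Control gave 3 higher voltage-gated pore subunits, 1 auxiliary subunit, 2 BK and Slo genes, 1 SK and IK gene and 2 2-pore domain channels. The lower genes were 1 inward rectifier and 1 2-pore domain channel. The counts of higher genes include Kcna1, Kcnd2, Kcnmb1 and Kcnn4, with a Control mean below the limit of testing. The call of Kcnmb1 held in 12 of 25 alternatives, that of Kcnk3 in 14 of 25 and that of Kcnt2 in 16 of 25. Each of these calls was lost on leaving out Control 1, CKD TRF 1 or CKD TRF 4, the first 2 genes also without Control 4 or CKD TRF 3, and Kcnmb1 also without Control 2. The fit without the libraries with adipose markers left CKD TRF 2 alone in its group, with the spread of the others assumed for it. Only sizes of change are therefore given from it: 1.75 for Kcnd2, 2.53 for Kcnn4 and -0.13 for Kcnmb1. After quantile normalization Kcna1 (0.47, limma adjusted p = 0.119) and Kcnj16 (-0.09, limma adjusted p = 0.509) were among those that did not pass. With equal sums the change of Kcnk5 was -0.26 (limma adjusted p = 0.0993) and that of Kcnj16 -0.29 (limma adjusted p = 0.0427).

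The 54 untested genes were too low for the test. No read was found in any library for 11, among them Kcna10, Kcnh6, Kcnj6, Kcnk9, Kcnk12, Kcnk15, Kcnk16, Kcnk18, Kcns2 and Kcnv1. Another 13 reached 1 to 3 reads in their highest library, among them Kcna4, Kcna7, Kcnc1, Kcnd3, Kcng3, Kcng4, Kcnq5, Kcne2, Kcnmb4, Kcnj14, Kcnk4 and Kcnk7. The remaining 30 reached 4 to 42 reads, at most 2.35 scaled reads. Among voltage-gated genes the highest library held 29 reads of Kcnd1, 26 of Kcnb2, 22 of Kcnh3, 20 of Kcnh7, 18 of Kcna5, 15 of Kcnh8, 14 of Kcna2, 12 of Kcnf1 and 10 of Kcna3. It held 4 to 7 reads of Kcng1, Kcnc4, Kcnq3, Kcnh4, Kcnh5, Kcns1 and Kcnv2. The auxiliary genes Kcnip4, Kcne3 and Kcnip1 reached 22, 12 and 4 reads. In the calcium-activated and Slo classes Kcnu1 reached 24, Kcnmb2 20, Kcnmb3 14 and Kcnn2 12 reads. Of the inward rectifiers, Kcnj5 and Kcnj11, the pore of the ATP-sensitive channel, each reached 19 reads, Kcnj9 9, Kcnj4 8 and Kcnj3 4. Of the 2-pore domain channels Kcnk13 reached 42 and Kcnk10 21 reads. Kcna3, the voltage-gated channel of T cells, had 12 reads over the 12 libraries together.

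With no filter on low values, 3 of these genes passed. In that fit of 18750 genes, 3313 were higher and 2925 lower in CKD against Control. In CKD TRF against Control 2638 were higher and 2330 lower. Kcnh8, an elk channel, had 0 reads in each Control library, 5, 5, 9 and 15 in CKD 1 to 4 and 0, 7, 0 and 7 in CKD TRF 1 to 4, and was higher in CKD than in Control (0.59 ± 0.16, limma adjusted p = 0.0109). Kcnk13 had 0, 0, 10 and 0 reads in Control 1 to 4, 15, 42, 11 and 7 in CKD 1 to 4 and 11, 20, 18 and 7 in CKD TRF 1 to 4, and was also higher in CKD (0.77 ± 0.27, limma adjusted p = 0.0403). Kcne3, an auxiliary subunit that holds Kcnq1 open in epithelia, had 11, 12, 6 and 10 reads in Control 1 to 4, 3, 8, 7 and 7 in CKD 1 to 4 and 0, 11, 0 and 0 in CKD TRF 1 to 4. It was lower in CKD TRF than in Control (-0.73 ± 0.18, limma adjusted p = 0.00849). Values of a few reads carry a large counting error.

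Genes that work beside the channels were counted from a list of 43 pumps, cotransporters, HCN channels and regulators, 29 of them tested. In CKD against Control 7 rose and 3 fell (median 0.15), and in CKD TRF against Control 7 rose and 3 fell (median 0.14). In both, 24.1% of the tested partners rose and 10.3% fell, beside 23.6% and 21.8% of all tested genes in CKD and 19.5% and 17.9% in CKD TRF. Sgk1, a kinase induced by aldosterone, rose in CKD (1.49 ± 0.16, limma adjusted p = 5.9e-07) and in CKD TRF against Control (1.14, limma adjusted p = 2.3e-05). The largest falls in CKD were Hcn3, a pacemaker-type cation channel (-1.20 ± 0.27, limma adjusted p = 0.00132), and Fxyd2, the gamma subunit of the renal sodium pump (-0.46 ± 0.12, limma adjusted p = 0.00377). In CKD TRF they were Hcn3 (-0.99, limma adjusted p = 0.00715) and Slc12a7, a potassium-chloride cotransporter (-0.42, limma adjusted p = 0.00727).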

How the data were processed

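RNA of 12 kidney samples (500 ng each) went into Lexogen QuantSeq libraries, per the labels' protocols. Bowtie2, bedtools and mm10 are named, without versions, per the submitters' processing notes. The strand setting, the scaling method and the test of the authors are not given in the sources used here. The authors deposited 1 log2 value per gene entry and sample (23282 entries). From the values, these were log2 of scaled reads plus 1, and each library had 1 step size, the worth of 1 read, that divides its scaled reads: 98.3% to 100% of values below 20 scaled reads lay within 0.1 of a whole number of such steps. For 35 symbols with several entries, none of them a channel gene, that of the highest mean was used.

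The 13943 genes in the upper 60% by mean (at least 0.729) entered 1 limma 3.58.1 (R 4.3.3) model with a mean per group, a two-sided moderated test with a prior spread that followed the mean level, and Benjamini-Hochberg adjustment over all of them at 0.05. On simulated data of 13943 genes for CKD against Control, the test recovered 34.0% of 100 genes changed by 0.5, 80.0% of 50 changed by 1 and 100% of 50 changed by 2, with 6 false calls of 130. For CKD TRF against CKD it recovered 34.0%, 88.0% and 100%. The changed genes were drawn only from those well above 0, and the sizes were log2 fold changes with no 1 added. These shares therefore do not give the recovery for channel genes near 0, which was not simulated.

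Values of every library are given for genes past 0.05 in any comparison and for the gene with the highest mean of each class. Of the partner list, the 2 largest rises and falls are named. A few genes that the rule would name are counted but not reported here. Kcna6, Kcnh2, Kcnh8, Kcnk13, Kcne3 and Kcna3 were given values beyond that rule after these were seen. The genes and lists were chosen with earlier results of these data known. Gene positions are from GENCODE M21 (GRCm38, that is mm10) and start site sequences from RefSeq. Alternatives covered scaling, the filter on low values, the added constant, the spread model, sample weights, the samples fitted, marker covariates, limma voom and leaving out each library.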

Additional observations from a re-analysis of the deposited data

Results flagged for a closer look

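Kcnt2 in CKD 3 stood apart from the other CKD libraries. Its deposited log2 value there was 0.948 (0.929 scaled reads), beside 2.24 to 2.44 in the other 3. The gap to the nearest library was 0.869 of the range of the group, above Dixon's 95% critical value for 4 samples. Of 51 groups of 4 libraries examined this way, over the genes with values in every library, this was the only 1 past the critical value, and chance gives about 1 in 20. Without CKD 3 the change of Kcnt2 in CKD against Control was 1.52 (limma adjusted p = 2.2e-04), beside 1.17 with it.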

How the results depend on the processing

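Of single gene results under the alternatives, 1146 kept direction and side of the threshold, 51 changed sign without a call before or after, 81 lost the call, 12 gained one and 3 changed sign with a call on either side: Kcnj15 in CKD against Control after quantile normalization (0.41), Kcnk3 in CKD TRF against Control with the marker covariates (-0.16) and Kcnmb1 in CKD TRF against Control without the libraries with adipose markers (-0.13). The cause of these was not tested. In CKD against Control the number of higher channel genes was 2 with the stricter filter, which tests 11 of them, 0 with the covariates and 7 without the libraries with adipose markers. The number of lower genes was 1 with equal sums, 1 with the covariates and 1 with limma voom. In CKD TRF against Control the number higher was 4 after quantile normalization, 2 with the stricter filter and 0 with the covariates. Of all genes, 2324 of 13943, 1686 of 9294 and 45 of 13943 were higher in these fits. The number lower was 1 with equal sums, 1 after quantile normalization, 1 with limma voom and 0 with the covariates. Of all 13943 genes, 1430, 2491, 1375 and 6 were lower in these fits. Counts without the libraries with adipose markers are not given for this comparison, as 1 CKD TRF library remained. On leaving out 1 library at a time, CKD against Control gave 11 to 16 higher and 3 lower channel genes, CKD TRF against Control 6 to 11 higher and 2 to 3 lower, and the comparison of CKD TRF with CKD 0. Scaling moved the split of all called genes: in CKD against Control 52.1% were higher as deposited, 40.3% after median centring, 76.3% with equal sums, 47.2% after quantile normalization and 75.8% with limma voom. In CKD TRF against Control these shares were 52.1%, 41.6%, 71.9%, 48.3% and 71.4%. The median change of all tested genes in CKD was 0.02 as deposited, -0.08 after centring, 0.23 with equal sums and 0.25 with limma voom. With the replicate number as a replicate block the counts were 12 and 3 in CKD against Control, 9 and 2 in CKD TRF against Control, and 0 between CKD TRF and CKD. Samples of the same number correlated at -0.18 to 0.11, and not every sample correlated best with its own number, so they share only a number. A count of 0 allows up to 3 reads, so counts of 0 to 3 are hard to tell apart. This limits 24 of the 91 genes in every library.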
